A study of Mus musculus with 8 samples.

Results

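The genes of the nuclear pore complex were read in cardiac fibroblasts of mice with and without a conditional deletion of *Lmna*. A gene was included when its symbol begins with Nup and a digit, and *Tpr*, *Pom121*, *Ndc1*, *Rae1*, *Seh1l*, *Sec13*, *Aaas*, *Ranbp2* and *Gle1* were added by name. This gave 30 genes of the 18957 listed in each count file. The row of *Nup58*, a component of the central channel, was not found under that symbol or its older name *Nupl1* and is not analysed here.

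The samples were 4 WT and 4 *Pdgfra-Cre:Lmna*F/F libraries, each from PDGFRA+ cells sorted from the ventricles of 1 mouse of a mixed C57BL/6 strain at 3 to 4 weeks of age, with blood-lineage and dead cells gated out. The mice of the *Pdgfra-Cre:Lmna*F/F genotype are called mutant here. Both of their *Lmna* alleles carry loxP sites around exon 2, and Cre is made from a bacterial artificial chromosome under the control of *Pdgfra*, a transgene that is also active in part of the cardiac myocytes during development. By the methods, the WT littermates carry neither the transgene nor floxed alleles, so an effect of Cre itself and an effect of the loss of *Lmna* cannot be told apart here. The question was whether the genotypes differ in the transcripts of the pore.

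The nuclear pore complex is the channel through which proteins and RNA pass between the nucleus and the cytoplasm. It is built of stacked rings that fuse the inner and the outer nuclear membrane, with flexible filaments on the cytoplasmic face and a basket on the nuclear face. The basket lies next to the nuclear lamina, the meshwork to which lamin A and lamin C, the products of *Lmna*, belong. Scaffold subunits are among the longest-lived proteins of non-dividing cells, so the level of a transcript does not give the level of its protein.

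None of the pore genes passed the threshold for a difference between the genotypes, and most were measured closely enough to exclude a doubling or a halving from their 95% intervals. Of the 29 genes that passed the filter on low counts, 0 had an adjusted p under 0.05 in the quasi-likelihood test of edgeR, where 0.407% of all 13036 genes tested did. Limma-voom called 0 of the 29 as well, and DESeq2, which gave no adjusted p for *Nup210*, called 0 of the others. A p that misses the threshold does not show that the levels were alike. At an unadjusted p under 0.05 there was 1 pore gene, *Ranbp2*, a share of 3.45%, where the share was 11.9% over all genes. The 95% interval of the fold change lay within 2-fold in both directions for 20 of the 29 genes, a share of 69.0%. The share was 41.6% over all genes tested and 69.2% (27 of 39) for the nuclear transport genes described below. Whether these shares differ between genes of the same level was not tested, so they do not show that pore transcripts were unusually steady. The largest estimates of either sign belonged to *Nup43*, with a log2 fold change of 0.97, and *Nup210*, with -0.52, both among the lowest in count. The estimate of *Nup210* was -1.07 without mutant replicate 2 and 0.14 without WT replicate 3.

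The upstream sequences of 3 members are shown because *Ranbp2* and *Rae1* had the lowest p among the pore genes and *Nup62* the second highest WT level per length, after *Sec13*. Each is the stretch of 250 bases before the transcription start that RefSeq annotates, on GRCm38.p6, 5′ to 3′ on the strand of the gene, in lower case. Capitals mark matches, on either strand, to the motif letters CCGGAAG of the ETS family, GGGCGG of the SP family (the GC box), CCAAT of the NF-Y factor, CACGTG of the E-box factors or TATAAA of the basal TATA element. The *Ranbp2* stretch holds a match to CACGTG and one to TATAAA. The TATAAA letters stand near the middle of the stretch, not next to the RefSeq start, which is itself 68 bases from the GENCODE start. The stretch of *Rae1* holds a match to the GC box, and that of *Nup62* a match to the GC box and a pair of CCAAT matches.
*Ranbp2*, + strand, chr10:58446602-58446851: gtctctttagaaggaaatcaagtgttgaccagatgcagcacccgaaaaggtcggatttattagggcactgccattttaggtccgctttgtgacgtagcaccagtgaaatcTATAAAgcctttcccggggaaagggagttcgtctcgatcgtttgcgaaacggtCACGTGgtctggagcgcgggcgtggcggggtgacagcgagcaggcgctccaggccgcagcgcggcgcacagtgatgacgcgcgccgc
*Rae1*, + strand, chr2:172999867-173000116: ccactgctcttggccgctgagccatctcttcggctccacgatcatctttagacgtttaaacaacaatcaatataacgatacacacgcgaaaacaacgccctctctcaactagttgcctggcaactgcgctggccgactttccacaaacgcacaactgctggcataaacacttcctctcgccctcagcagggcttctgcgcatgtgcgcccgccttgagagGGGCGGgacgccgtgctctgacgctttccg
*Nup62*, + strand, chr7:44815838-44816087: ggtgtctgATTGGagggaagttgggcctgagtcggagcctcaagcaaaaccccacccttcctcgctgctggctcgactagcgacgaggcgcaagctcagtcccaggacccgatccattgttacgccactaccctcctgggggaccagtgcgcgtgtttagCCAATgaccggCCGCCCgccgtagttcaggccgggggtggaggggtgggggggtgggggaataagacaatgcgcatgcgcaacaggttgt

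RefSeq promoter windows, from 250 bases before to 50 bases after a start, were held for 25 of the 30 genes, in 28 windows. The entries of *Nup35*, *Nup43*, *Nup85*, *Nup210l* and *Seh1l* were missing. The letters CCGGAAG stood in 9 of the 28 windows, 32.1%, against 16.5% of 13065 windows of the genes tested and 8.86% of all 32851 windows. The GC box was in 67.9% of the pore windows and 61.5% of the windows of tested genes, and TATAAA in 10.7% and 7.25%. CCAAT was found in 42.9% and 37.2%, and CACGTG in 14.3% and 9.62%. The median GC content was 63.8% in the pore windows and 60.7% in those of the genes tested. The windows of a gene with several starts can overlap, and a match to these letters is not a measured binding site.

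The libraries held 2080555 to 12502949 counts, and WT replicate 2 was the shallowest. The targeted gene *Lmna* (chromosome 3, 88480147 to 88509956, mm10) was lower in each mutant library, at 90.1 to 130 CPM (counts per 1000000 counts of the library, scaled by TMM factors), than in each WT library, at 273 to 481 CPM. Counts per gene do not separate the deleted exon from the others. The 8 fibroblast markers summed to between 40478 and 58455 CPM in all libraries. The 6 cardiomyocyte markers summed to 688 to 940 CPM in the WT libraries, to 277 to 841 CPM in mutant replicates 1 to 3 and to 5350 CPM in replicate 4, which also had the highest sum of the 6 leukocyte markers, 366 CPM against 35.2 to 151 CPM in the others. The 8 proliferation markers reached 270 CPM in WT replicate 2 and 102 CPM in WT replicate 3 and lay between 8.21 and 20.9 CPM in the other libraries. The 12 genes of the response to tissue dissociation summed to 1628 to 4379 CPM in the WT and 5883 to 9473 CPM in the mutant libraries (exact permutation test, two-sided, p = 0.0286, the smallest this design allows, and 0.257 after adjustment over 9 lists). Endothelial markers, at 157 to 240 and 83.4 to 185 CPM, mural markers, at 150.3 to 303 and 137 to 329 CPM, mesothelial markers, at 7.17 to 30.1 and 5.17 to 8.66 CPM, and Schwann cell markers, at 0 to 5.50 and 1.25 to 7.69 CPM, overlapped between WT and mutant. The part of these lists in the values of the pore genes was not tested. In bulk RNA, fewer cells of a type and less RNA per cell cannot be told apart.

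The pore genes differed widely in level. Levels are compared between genes as CPM per kilobase of merged GENCODE M21 exons. *Sec13*, a Y complex subunit that also serves in the coat of vesicles leaving the endoplasmic reticulum, was highest, at 38.9 ± 5.18 CPM per kb (SD, n = 4) in the WT and 37.8 ± 8.68 in the mutant fibroblasts. *Nup62*, whose protein lines the central channel, had the second highest WT level, at 20.4 ± 5.58 CPM per kb, and 22.0 ± 6.25 CPM per kb in the mutant fibroblasts, where *Ranbp2* was at 22.4 ± 4.63. *Ranbp2*, *Rae1*, *Nup85* and *Tpr* had WT levels of 15.3, 14.3, 14.1 and 13.7 CPM per kb, which lie within each other's SD.

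At the low end were *Nup210l* at 0.768 ± 0.429, *Nup210* at 0.283 ± 0.207 and *Nup62cl* at 0.148 ± 0.239 CPM per kb (SD, n = 4) in the WT. *Nup62cl*, a gene related to *Nup62* on chromosome X, did not pass the filter: it had 12, 0, 0 and 2 counts in WT replicates 1 to 4 and 0, 51, 0 and 0 counts in the mutant replicates. *Nup210* encodes a membrane glycoprotein of the pore whose expression is known to depend on cell type. The other transmembrane genes were higher, with WT levels of 4.97 ± 3.09 CPM per kb for *Ndc1* and 3.89 ± 2.06 for *Pom121*.

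**Figure D1:**
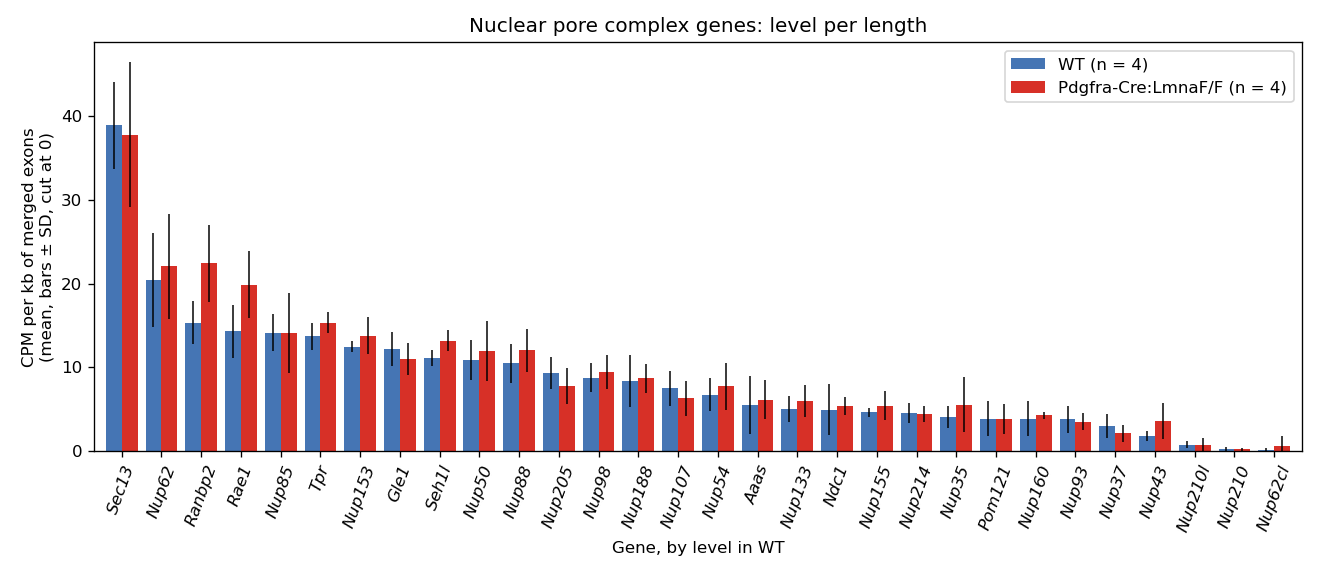
Mean CPM per kilobase of merged exons (bars, with SD as lines cut at 0, n = 4) of the 30 pore genes in WT (blue) and Pdgfra-Cre:LmnaF/F (red) libraries, ordered by the WT mean. Sec13 is highest in both genotypes, and Nup210l, Nup210 and Nup62cl are below 1 CPM per kb.

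*Ranbp2* and *Rae1*, the pore genes with the lowest p, belong to the cytoplasmic side. The next by p, *Nup43*, belongs to the Y complex, and the other genes of the cytoplasmic side ranked from 7 to 26 by p. *Ranbp2* (ENSMUSG00000003226.7, chromosome 10, 58446920 to 58494356) encodes the large filament protein that binds RAN and acts as a SUMO ligase. In WT replicates 1 to 4 it had 204, 165, 205 and 144 CPM, against 218, 261, 339.7 and 233 CPM in the mutant ones. Each mutant library lay above each WT library, and mutant replicate 3 stood highest. The groups of no other pore gene were free of overlap, which makes 1 of 29 (3.45%) against 8.03% of all genes tested, 4.06% with the mutant libraries above and 3.97% with them below. The log2 fold change of *Ranbp2* was 0.55 (standard error 0.21, 95% interval 0.11 to 0.99, adjusted p = 0.308 by edgeR), or 1.46-fold, and it did not pass the threshold. Without WT replicate 4 or without mutant replicate 3, the estimate of *Ranbp2* fell to 0.45 or 0.40, and the unadjusted p was no longer under 0.05.

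*Rae1* (ENSMUSG00000027509.11, chromosome 2, 173000117 to 173015739), which acts with *Nup98* in mRNA export, had 42.0, 39.1, 24.4 and 40.5 CPM in the WT and 46.6, 62.5, 54.9 and 38.9 CPM in the mutant replicates. Replicate 4 of mutant lay among the WT values, and WT replicate 3 was the lowest. The log2 fold change was 0.47 (standard error 0.26, 95% interval -0.07 to 1.02, adjusted p = 0.498 by edgeR), and 0.32 without WT replicate 3 or with limma-voom. *Nup88*, the partner of *Nup214* on the cytoplasmic face, had 76.8, 112, 69.3 and 83.5 CPM in the WT and 83.7, 85.5, 129 and 94.0 CPM in the mutant libraries. Its groups overlapped, with a log2 fold change of 0.20 (standard error 0.22, 95% interval -0.27 to 0.67, adjusted p = 0.802 by edgeR). Without mutant replicate 3 the estimate of *Nup88* was 0.05, without WT replicate 3 it was 0.11, and without WT replicate 2 it was 0.35.

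The 4 remaining genes of the cytoplasmic side gave smaller estimates. *Nup98*, which encodes the precursor of both Nup98 and the Y complex protein Nup96, had a log2 fold change of 0.11 with a 95% interval of -0.35 to 0.57. For *Nup214* it was -0.02 (-0.58 to 0.53), for the mRNA export factor *Gle1* -0.15 (-0.60 to 0.31), and for *Aaas*, the gene mutated in triple A syndrome, 0.14 (-0.87 to 1.14). The estimate of *Aaas* was 0.64 without WT replicate 1, -0.10 without WT replicate 3 and -0.30 with limma-voom. The fits without 1 library gave -0.04 to 0.22 for *Nup98*, -0.17 to 0.13 for *Nup214* and -0.28 to -0.06 for *Gle1*. Summed over the 7 genes, the WT mean of the cytoplasmic side was 545 ± 64.7 CPM and the mutant mean 658 ± 114 CPM (SD, n = 4 each), a ratio of 1.21 with overlapping groups. This was the highest ratio of the 6 subcomplexes, and *Ranbp2* holds most of the difference in CPM.

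**Figure D2:**
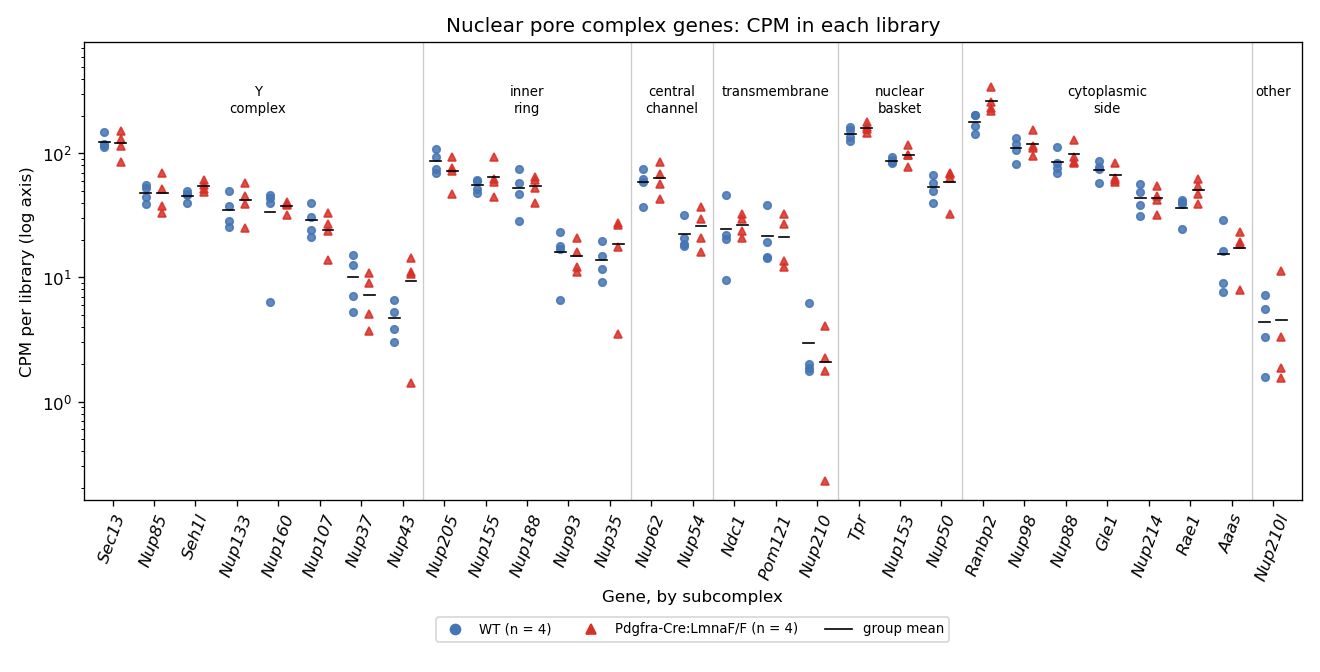
CPM of the 29 pore genes that passed the filter, on a log axis, in each WT (blue circles) and Pdgfra-Cre:LmnaF/F (red triangles) library, with group means as lines, ordered by subcomplex and WT mean. Only for Ranbp2 do all 4 Pdgfra-Cre:LmnaF/F values lie above all 4 WT values.

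The nuclear basket gave small estimates for all of its genes. *Tpr* (ENSMUSG00000006005.18, chromosome 1, 150392838 to 150449935), the coiled-coil protein that forms the basket, had 163, 136, 153 and 125 CPM in the WT and 146, 177, 162 and 158 CPM in the mutant libraries. The groups overlapped, and the log2 fold change was 0.16 (standard error 0.18, 95% interval -0.23 to 0.54, adjusted p = 0.816 by edgeR), with 0.09 to 0.23 when 1 library was left out. *Nup153*, whose protein anchors the basket to the ring and is known to bind lamins, had a log2 fold change of 0.15 (95% interval -0.26 to 0.55), and *Nup50*, which helps to release import cargo, of 0.14 (-0.44 to 0.71). All 3 estimates were above 0, and all 3 intervals include 0. When 1 library was left out, *Nup153* ranged from 0.05 to 0.24 and *Nup50* from 0.01, without WT replicate 3, to 0.33, without mutant replicate 2.

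Their sum in WT replicates 1 to 4 was 296, 296, 277 and 271 CPM, and in the mutant replicates 312, 326, 324 and 303 CPM. The summed groups did not overlap, at a ratio of 1.11, whereas those of each of the 3 genes did. The sums of the other 5 subcomplexes overlapped between the genotypes. Since the subcomplex was chosen among the pore genes with results known, no test of the sum is given.

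The Y complex is the scaffold that forms the outer rings. *Seh1l* (ENSMUSG00000079614.4, chromosome 18, 67774876 to 67795487) had 46.0, 40.1, 46.7 and 49.6 CPM in the WT and 52.0, 60.5, 56.0 and 48.9 CPM in the mutant libraries. Replicate 4 of mutant was below the highest WT library, and the other 3 were above all WT libraries. On the log2 scale its fold change was 0.25 (standard error 0.21, 95% interval -0.19 to 0.69, adjusted p = 0.718 by edgeR).

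*Nup43* (ENSMUSG00000040034.15, chromosome 10, 7667503 to 7678881), a small propeller subunit, had 57, 6, 24 and 64 counts in WT replicates 1 to 4, or 5.31, 3.01, 3.82 and 6.61 CPM. In the mutant libraries it had 107, 102, 124 and 17 counts, or 11.04, 10.6, 14.2 and 1.41 CPM. In this genotype 3 libraries were above all WT values and replicate 4 was below them all. The estimated log2 fold change of 0.97 (edgeR, standard error 0.69, adjusted p = 0.650) had a 95% interval from -0.52 to 2.45, which holds both no change and a change above 2-fold. The estimate of *Nup43* was 0.36 with limma-voom, which weights libraries by quality, and 0.69 without mutant replicate 3. Without mutant replicate 4, the library with the high cardiomyocyte markers, the log2 fold change of *Nup43* was 1.32, and *Nup43*, *Rae1* and *Ranbp2* were the pore genes with an unadjusted p under 0.05, none of them past the adjusted threshold (lowest adjusted p = 0.284 by edgeR). These 3 of 29 stand beside 11.1% of all genes tested in that fit.

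*Nup160* had WT values of 45.8, 39.6, 6.37 and 43.9 CPM and 38.3, 32.0, 40.3 and 38.8 CPM in the mutant replicates. WT replicate 3 stood far below the other 7 libraries, with 40 counts, while its total depth was not the lowest. The log2 fold change of *Nup160* was 0.14 (standard error 0.43, adjusted p = 0.945 by edgeR) and turned to -0.22 without that library. With limma-voom it was -0.03, and with RUVr, which removes 1 factor of unwanted variation, 0.44. The estimates of the other Y complex genes were 0.24 for *Nup133*, 0.00 for *Nup85*, -0.04 for *Sec13*, -0.25 for *Nup107* and -0.48 for *Nup37* on the log2 scale. When 1 library was left out, *Nup133* ranged from 0.05 to 0.45, *Nup85* from -0.23 to 0.14, *Sec13* from -0.17 to 0.09, *Nup107* from -0.44 to -0.06 and *Nup37* from -0.76 to -0.22, and limma-voom gave 0.00 for *Nup133*. The 95% interval of *Sec13* was narrow, from -0.49 to 0.41, and that of *Nup37* wide, from -1.69 to 0.73.

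In the inner ring, the layer that holds the channel in place at the fused membranes, *Nup205* (ENSMUSG00000038759.15, chromosome 6, 35177421 to 35247596) had 75.2, 108, 93.7 and 69.6 CPM in the WT and 94.1, 75.9, 72.4 and 46.7 CPM in the mutant libraries. The groups overlapped, and replicate 4 of mutant was the lowest. Its log2 fold change was -0.26 (standard error 0.24, 95% interval -0.77 to 0.26, adjusted p = 0.757 by edgeR). The estimate of *Nup205* was -0.10 without that library and with limma-voom, -0.14 without WT replicate 2 and -0.41 without mutant replicate 1.

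*Nup155* (ENSMUSG00000022142.8, chromosome 15, 8109273 to 8161247), a gene linked to inherited atrial fibrillation, had 48.3, 61.2, 59.9 and 51.5 CPM in the WT and 58.7, 62.3, 93.5 and 44.5 CPM in the mutant libraries. Its groups overlapped, with replicate 3 of mutant on top, and the log2 fold change was 0.23 (standard error 0.24, 95% interval -0.29 to 0.75, adjusted p = 0.794 by edgeR). Without that library the estimate of *Nup155* was 0.00, and without mutant replicate 4 it was 0.38. The estimate was 0.44 for *Nup35* with an interval of -0.67 to 1.55, where replicate 4 of mutant was lowest at 3.49 CPM and the other 7 libraries had 9.24 to 27.2 CPM. Without that library it was 0.79, without mutant replicate 1 it was 0.19, and with limma-voom 0.15. For *Nup188* it was 0.07 (-0.54 to 0.68) and for *Nup93* -0.12 (-1.01 to 0.76). When 1 library was left out, *Nup188* ranged from -0.14 to 0.28 and *Nup93* from -0.37 to 0.09.

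The channel genes *Nup62* and *Nup54*, whose proteins carry phenylalanine-glycine repeats that meet the transport receptors, had log2 fold changes of 0.11 (95% interval -0.46 to 0.68) and 0.22 (-0.49 to 0.94). When 1 library was left out they ranged from -0.07 to 0.26 and from -0.01 to 0.43. Among the transmembrane genes, the log2 fold changes were 0.11 for *Ndc1* (-0.73 to 0.95), -0.01 for *Pom121* (-0.91 to 0.89) and -0.52 for *Nup210* (-2.89 to 1.85). Their signs depended on 1 library: *Ndc1* was at 0.62 without WT replicate 4 and -0.17 without WT replicate 3 (-0.21 with limma-voom), and *Pom121* at 0.39 without WT replicate 2 and -0.28 without mutant replicate 3. *Nup210* (ENSMUSG00000030091.17, chromosome 6, 91013068 to 91116829) had the largest spread within genotype of the tested pore genes, with an SD of 1.13 on the log2 CPM scale. Its counts were 19, 4, 39 and 18 in the WT and 17, 39, 2 and 27 in the mutant libraries (standard error of the log2 fold change 1.11, adjusted p = 0.912 by edgeR). *Nup210l*, a relative of *Nup210* better known from the testis, had a log2 fold change of 0.05 with an interval of -1.87 to 1.98, and was at -0.94 without mutant replicate 3 and 0.41 without WT replicate 3.

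**Figure D3:**
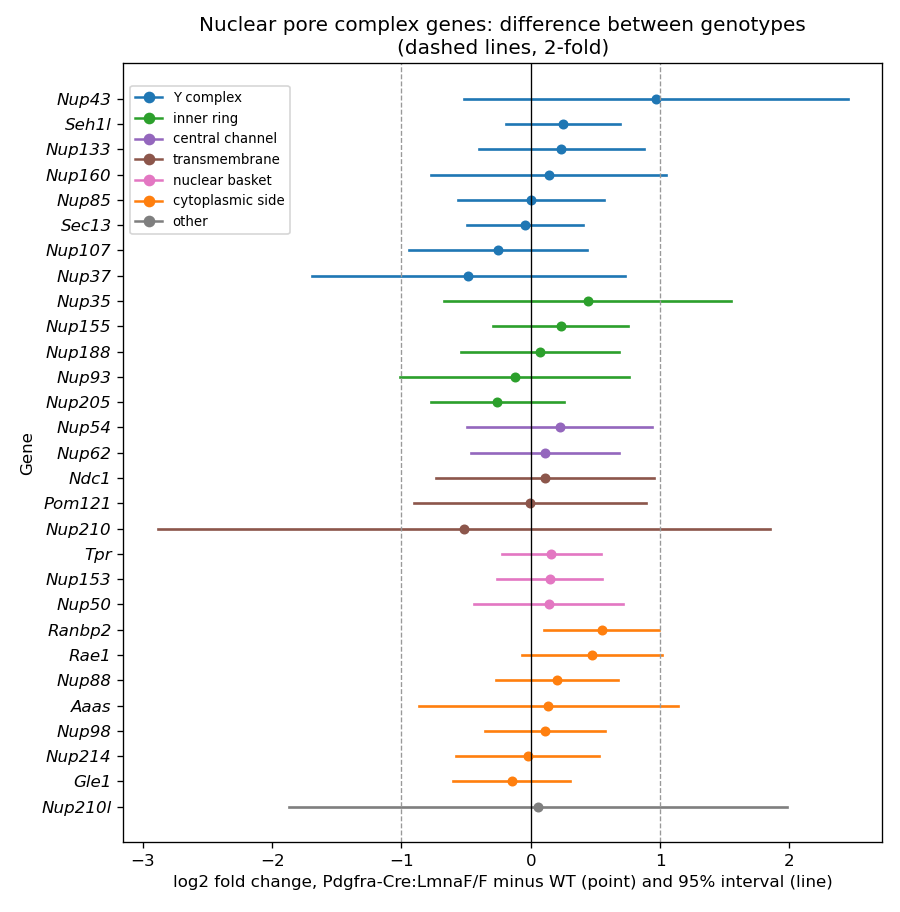
Log2 fold change, Pdgfra-Cre:LmnaF/F minus WT (point), with its 95% interval (line) for the 29 pore genes tested, coloured by subcomplex, with dashed lines at a 2-fold change. The interval of Ranbp2 is the one that does not include 0, and 20 of the 29 intervals lie between the dashed lines.

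Over the 29 genes, 20 estimates were above 0 and 9 below, where 51.8% of all genes tested were above 0. For 14 of the 29 the sign turned when 1 library was left out. The median log2 fold change was 0.11, beside 0.02 over all genes tested, and the medians of the subcomplexes lay between -0.01 for the transmembrane genes and 0.17 for the central channel. Summed over the 30 genes, the pore transcripts took 1591, 1590.3, 1388 and 1506 CPM in the WT and 1615, 1758, 1909 and 1461 CPM in the mutant libraries, a ratio of 1.11. The groups overlapped, since replicate 4 of mutant was below 3 of the 4 WT libraries. The sums had means of 1519 CPM in the WT and 1686 CPM in the mutant libraries, and *Ranbp2* alone had means of 180 and 263 CPM.

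The libraries with the most low values were 1 of each genotype. WT replicate 3 was the lowest of the 8 libraries for 10 of the 29 genes, and mutant replicate 4 for 9. Replicates 2 and 3 of mutant were the highest for 7 genes each. Relative to the gene means, the median pore gene was at -0.28 in WT replicate 3 and -0.12 in mutant replicate 4 on the log2 scale, and at 0.24 and 0.23 in replicates 2 and 3 of that genotype. Over all genes tested, the medians of these 4 libraries lay between -0.00 and 0.07. Without WT replicate 3, the median log2 fold change of the pore genes was 0.05 and 16 of the 29 estimates were above 0, and without mutant replicate 3 they were 0.05 and 16 as well.

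**Figure D4:**
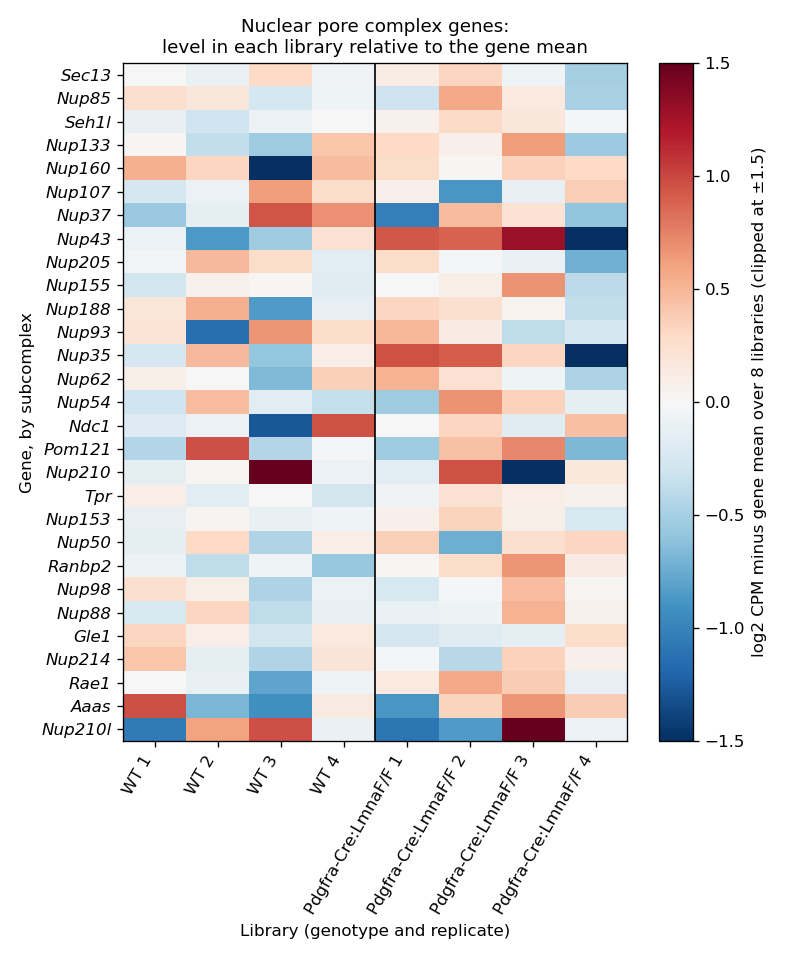
Log2 CPM of the 29 pore genes tested in each of the 8 libraries minus the mean of the gene over the libraries, from blue (lower) to red (higher), clipped at 1.5 either way. The colours do not divide at the line between the genotypes, and WT replicate 3 and Pdgfra-Cre:LmnaF/F replicate 4 hold the most low values.

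The spread between mice followed the level of the gene. The SD within genotype of log2 CPM had a median of 0.43 over the pore genes and 0.49 over all genes tested. For the 4 pore genes with a mean from 100 to 300 CPM (*Nup98*, *Ranbp2*, *Sec13* and *Tpr*) the median SD was 0.27, where all genes of that level had 0.30. For the 14 pore genes between 30 and 100 CPM it was 0.36, as over all genes of that level. *Seh1l*, at 0.13, was the steadiest pore gene, and *Nup160*, at 0.97, the least steady of the 14. For the 7 genes between 10 and 30 CPM the median was 0.68 against 0.55 over all genes, and for the 4 genes under 10 CPM it was 1.07 against 1.41.

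**Figure D5:**
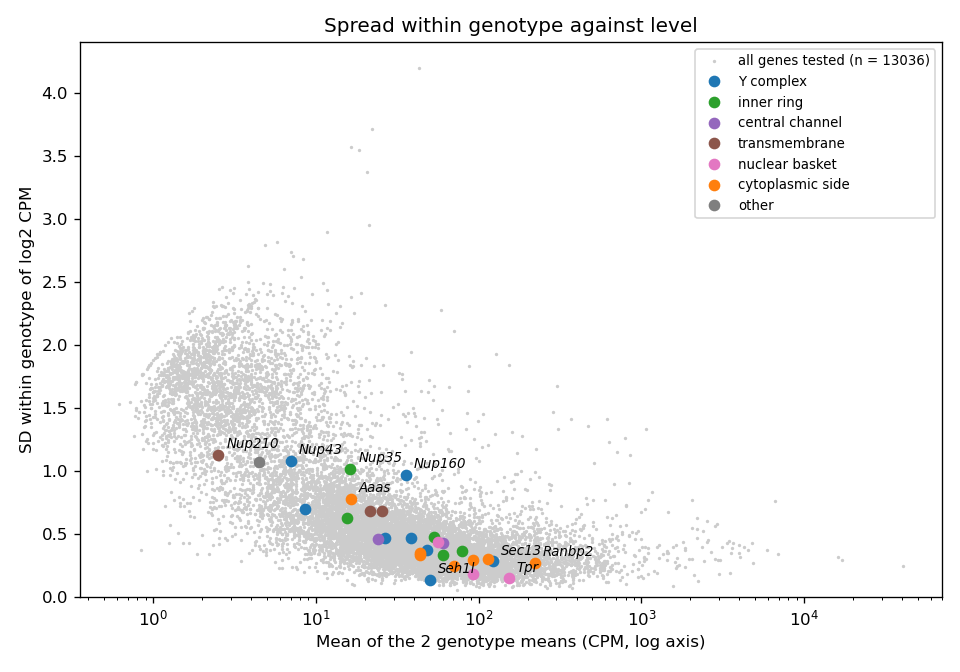
SD within genotype of log2 CPM against the mean of the genotype means (CPM, log axis) for all 13036 genes tested (grey) and the 29 pore genes (coloured by subcomplex). Most pore genes lie within the grey cloud, and Nup160 stands above genes of its level.

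Genes that act with the pore were read from a list of 39, all of which were tested. *Nup42* is among them under its older symbol *Nupl2*, with a log2 fold change of -0.34. The list also holds *Ahctf1*, the chromatin-binding seed of pore assembly, the transport receptors, the RAN cycle, and enzymes that work at the pore. With edgeR, 0 passed the threshold, and 6 had an unadjusted p under 0.05 (15.4%, beside 11.9% of all genes). Their median log2 fold change was -0.01, with 19 estimates above 0 and 20 below. *Ahctf1* itself had an estimate of 0.05 (95% interval -0.41 to 0.51), and the main import receptor *Kpnb1* of -0.09 (-0.50 to 0.31). For *Xpo1*, the main exporter of proteins, it was 0.18 (-0.46 to 0.83).

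The lowest p in this list belonged to *Ipo5* (ENSMUSG00000030662.10, chromosome 14, 120911224 to 120947999), an import receptor for ribosomal proteins and histones, at 63.3, 80.3, 52.4 and 59.1 CPM in the WT and 112, 117, 103 and 86.9 CPM in the mutant libraries. The groups did not overlap, and the log2 fold change was 0.72 (standard error 0.20, 95% interval 0.29 to 1.16, adjusted p = 0.160 by edgeR). DESeq2 put *Ipo5* just past the threshold (adjusted p = 0.0493).

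*Rangap1* (ENSMUSG00000022391.16, chromosome 15, 81704248 to 81745530) encodes the GTPase activator of RAN, which sits on the filaments bound to RANBP2. It had 42.2, 67.7, 65.3 and 30.04 CPM in the WT and 38.9, 23.5, 22.7 and 20.4 CPM in the mutant libraries. Replicate 1 of mutant lay above WT replicate 4, and the log2 fold change was -0.95 (standard error 0.31, 95% interval -1.62 to -0.29, adjusted p = 0.221 by edgeR). The import receptor *Ipo7* (ENSMUSG00000066232.4, chromosome 7, 110018274 to 110056609) had 93.2, 98.3, 90.8 and 73.3 CPM against 124, 157, 154 and 102 CPM, with no overlap. Its log2 fold change was 0.60 (standard error 0.20, 95% interval 0.17 to 1.03, adjusted p = 0.237 by edgeR). The exporter *Xpo4* was the third gene of the list whose groups did not overlap, which is 7.69% of the list beside 8.03% of all genes tested. In all 3 the mutant libraries lay above the WT, as they did in 4.06% of all genes tested.

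Some counts may hold reads of a neighbour. By the annotation, 4 pore genes share exon bases with another gene on the same strand, at most 4.55% of their exons (*Nup188*), and the share with genes on the opposite strand was highest for *Pom121* (11.9%) and *Nup133* (10.4%). The strand setting of the counting is not given in the sources used here.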

How the data were processed

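RNA of sorted PDGFRA+ cells of 8 mice was sequenced as strand-specific, ribosomal RNA depleted libraries with 150 bp paired-end reads. HISAT2 was used by the authors for alignment to mm10 and featureCounts for assigning reads to the genes of GENCODE, and the deposited values are whole-number counts per gene symbol, not scaled for library size. The release used for counting and the tool versions are not given in the sources used here, and the RUV normalization named in the methods is not part of the deposited counts.

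Counts were scaled with TMM factors and filtered with filterByExpr in edgeR 4.0.16 (R 4.3.3), which kept 13036 of 18957 genes. Genotypes were compared with the edgeR quasi-likelihood test fitted on genotype alone, with p-values adjusted over all genes tested after Benjamini and Hochberg and a threshold of 0.05. The standard error is the absolute log2 fold change divided by the square root of F, and the 95% interval uses its total degrees of freedom. SDs within genotype use log2 CPM with a prior count of 2. Exon lengths and positions come from GENCODE M21, of the same build as mm10, and upstream sequences from RefSeq. Library totals ran from 2080555 to 12502949 counts, which limits the precision of genes with few counts. Mice are the replicates.

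Alternatives were DESeq2 1.42.0, limma-voom with sample quality weights (limma 3.58.1), RLE and upper-quartile factors, other filters, RUVr with 1 factor in edgeR and DESeq2, a replicate block, and fits without 1 library each. The procedure was tested on simulated counts. The replicate numbers 1 to 4 occur in both genotypes. The members and gene lists were chosen with earlier results of these data known. Each pore gene could be named, and full values were given for the 8 with the lowest p, those without overlap, and the extremes of level and spread. Of the transport list, the 3 genes with the lowest p were described in full, and others were named after their values were seen.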

Additional observations from a re-analysis of the deposited data

Results flagged for a closer look

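In 60 groups of 4 libraries, formed by *Lmna* and the 29 tested pore genes in either genotype, the highest or lowest value was set against the nearest other value by Dixon's ratio, which chance alone puts past its limit in about 1 of 20 groups. It did so in 4 groups, and 3 of them involve WT replicate 3. *Nup160* had 6.37 CPM there, with the next WT library at 39.6 CPM. *Rae1* had 24.4 CPM in the same library, with the next at 39.1 CPM. *Nup210* had 6.21 CPM there, above the next WT library at 2.01 CPM. *Nup50* had 32.6 CPM in mutant replicate 2, below the next library of that genotype at 63.8 CPM. WT replicate 3 also had the second highest sum of proliferation markers, 102 CPM, and the part of this in the values was not tested.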

How the results depend on the processing

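In each of the 17 alternatives, 9 settings and 8 fits without 1 library, 0 pore genes passed the threshold, and the lowest adjusted p of a pore gene was 0.121, for *Ranbp2* with DESeq2 and RUVr. Its log2 fold change lay between 0.40 and 0.62 over all alternatives. The median log2 fold change of the pore genes was 0.05 to 0.17 without 1 library and 0.00 with limma-voom. *Nup43* and *Nup210* were not tested with at least 10 counts required in every library, and *Nup210* had no adjusted p with DESeq2. The sign held in all 17 alternatives for 14 of the 29 genes and for *Nup43* in each that tested it, and *Lmna* stayed past the threshold in all. Over all genes, the 53 calls (22 higher, 31 lower) became 303 with DESeq2, 126 with limma-voom (63 higher, 63 lower), 274 with no filter, 83 with RUVr (46 higher, 37 lower) and 455 with DESeq2 and RUVr (242 higher, 213 lower). Without 1 library they numbered 13 to 76, with fewest without WT replicate 4 (1 higher, 12 lower). They were also down by over 1.5 times without mutant replicate 3 (17) or 2 (26) and without WT replicate 1 or 2 (24 each). Of the transport genes, 1 was called with DESeq2 and 1 with DESeq2 and RUVr, *Ipo5* in both. The fits without 1 library used edgeR, which called 0 transport genes in each of them and 0 with all 8 libraries. DESeq2 was not fitted without 1 library. Deviations of same-numbered libraries from their genotype means correlated at -0.03 to 0.04. Those of libraries with different numbers also correlated at -0.03 to 0.04. The numbers thus showed no sign of pairing, but such a check cannot exclude it. With the replicate block there were 36 calls over all genes and 0 among the pore genes. The depth of WT replicate 2, 2080555 counts, limits the 4 tested pore genes under 10 CPM, for which 4 to 14 counts were found there.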
